A study of Mus musculus with 13 samples.

Results

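The secretory granule genes Chga, Chgb, Scg2, Scg3, Scg5, Pcsk1, Pcsk2, Pcsk1n, Cpe and Pam were followed through 12 chromatin immunoprecipitation sequencing (ChIP-seq) peak lists from LβT2 cells, a mouse line of the pituitary gonadotrope type. A peak was assigned to one of these 10 genes when the deposited annotation named that gene for it and its centre lay within 100 kb of the named start. This gave 331 of 538751 peaks. All cells, called LβT2-FLAG-mFoxL2, carried a lentiviral cassette with constitutive GFP and with FLAG-tagged mouse FOXL2 and a fluorescent reporter switched on by doxycycline (DOX). All had received DOX for 48 h and were held for 2 h in 2% serum. They then received either vehicle or activin A at 1 nM for 1 h. The antibodies recognised SMAD2/3, the FLAG tag of the introduced FOXL2, or acetylated lysine 27 of histone H3 (H3K27ac). Each antibody was used on 2 vehicle and 2 activin libraries, each pooled from 3 plates of cells. The FLAG antibody reads the introduced protein and not the cells' own FOXL2, and a described Protein-A control was not analysed here.

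Gonadotropes store hormones in dense-core granules and release them when stimulated. The granins (chromogranins and secretogranins) are acidic proteins that aggregate with cargo in the trans-Golgi network and help to form these granules. Inside them, prohormone convertases cut precursors after pairs of basic residues, carboxypeptidase E trims the basic residues that remain, and the amidating enzyme Pam modifies the C-terminus of many peptides. Activin A acts through receptor kinases that phosphorylate SMAD2 and SMAD3, which then enter the nucleus and bind DNA together with other factors. FOXL2 is a forkhead transcription factor of gonadotropes and of the ovary that can bind beside SMAD proteins. H3K27ac marks active promoters and enhancers.

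Sequences before the start of 4 members are shown because peaks covered 3 of them and because they carry the motifs searched. They come from RefSeq on GRCm38.p6 and are written 5′ to 3′ on the strand of the gene. Entries matched 9 of the 10 members, all but Cpe. The Pcsk1n stretch lies at chrX:7919572-7919821, on the plus strand, and ends at the base before the start. Capitals mark the SMAD-binding motif CAGAC on either strand. Its first 137 bases lay under the single SMAD2/3 peak of Pcsk1n, and its first 105 bases under an H3K27ac region.
Pcsk1n promoter: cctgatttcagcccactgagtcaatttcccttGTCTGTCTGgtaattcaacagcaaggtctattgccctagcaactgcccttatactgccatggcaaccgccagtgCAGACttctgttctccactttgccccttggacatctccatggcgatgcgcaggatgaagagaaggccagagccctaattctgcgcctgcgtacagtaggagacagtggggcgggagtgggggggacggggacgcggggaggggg
The Scg2 stretch lies at chr1:79440043-79440276, on the minus strand, before both the deposited and the RefSeq start. Capitals mark the cAMP response element TGACGTCA. FOXL2 and H3K27ac regions of all 4 libraries covered all 234 bases.
Scg2 promoter: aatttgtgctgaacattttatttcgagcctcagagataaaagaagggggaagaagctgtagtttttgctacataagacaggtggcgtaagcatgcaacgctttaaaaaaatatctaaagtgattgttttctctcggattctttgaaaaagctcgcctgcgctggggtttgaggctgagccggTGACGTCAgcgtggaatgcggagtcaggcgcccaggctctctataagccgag
The Chgb stretch (chr2:132781559-132781588, plus strand) lies before the RefSeq start but within the gene as deposited, whose start is further upstream. It holds the same element and lay under an H3K27ac region of all 4 libraries. The 2 Pcsk1 stretches (chr13:75089768-75089797 and chr13:75089802-75089831, plus strand) hold the cAMP response element and the forkhead motif GTAAACA, also in capitals, and no peak of any list covered them.
Chgb cAMP response element: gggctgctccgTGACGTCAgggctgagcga
Pcsk1 cAMP response element: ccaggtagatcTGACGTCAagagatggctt
Pcsk1 forkhead motif: cgatttgacgtGTAAACActcatttctatt

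Motifs were searched on both strands of windows from 250 bases before to 50 bases after the RefSeq start. TGACGTCA was found in 3 of 9 member windows (Chgb, Pcsk1 and Scg2) and in 1.79% of 32851 windows of the same length. CAGAC was found in 1 of 9, at Pcsk1n, and in 49.6% of all windows. GTAAACA was found at Pcsk1 alone among the members and in 3.65% of all windows. The TATA box letters TATAAA were found at Chga alone among the members and in 13.6% of all windows. A match describes letters only.

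The lists differed in length more for SMAD2/3 than for the other antibodies. Vehicle lists of SMAD2/3 had 605 and 144 entries, activin lists 7784 and 5970. The FOXL2 lists held 83834 to 97701 peaks and the H3K27ac lists 38995 to 41763. Reads per library were not among the values analysed, so depth is unknown, and its part in any difference between lists was not tested. For each antibody, peaks of its 4 libraries that overlapped by at least 1 bp were joined into 1 region. H3K27ac lay within 1000 bp of the start of 8 of 10 gonadotrope genes in all 4 libraries, the exceptions being Fshb and Lhx3. It did so at 0 of 4 somatotrope, lactotrope and thyrotrope genes and at 1 of 5 corticotrope and melanotrope genes (Crhr1). Of the granule genes, 7 of 10 had H3K27ac that near to the start, the exceptions being Pcsk1, Pcsk2 and Pam. H3K27ac over the start itself in all 4 libraries was found at 6 gonadotrope genes, 5 granule genes and 0 genes of the other lists. The planned readout was a peak that the annotation classes as promoter. By that readout, 1 gonadotrope gene, 0 granule genes and 0 genes of the other lists qualified in all 4 libraries. Shares of all genes under these rules were not computed, so the counts cannot be read as a trait of granule genes.

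The first comparison counted peaks at the granule genes with and without activin. SMAD2/3 peaks numbered 0 and 0 with vehicle against 5 and 4 with activin. Those of FOXL2 numbered 52 and 50 with vehicle against 54 and 58 with activin. H3K27ac peaks numbered 25 and 29 in both treatments. The SMAD2/3 and FOXL2 counts thus did not overlap between treatments, while the H3K27ac counts were the same pair. On the log2(number + 1) scale the difference, activin minus vehicle, was 2.45 for SMAD2/3, 0.13 for FOXL2 and 0 for H3K27ac, with standard deviations between libraries (SD, pooled over treatments, n = 2 each) of 0.13, 0.058 and 0.15. A two-sided exact permutation test over libraries gave p = 0.333 for SMAD2/3 and FOXL2, the smallest that 2 libraries against 2 allow, and p = 1 for H3K27ac. At the rate of the activin SMAD2/3 lists, which held 6.42 and 6.70 such peaks per 10000, the short vehicle lists would hold 0.396 and 0.0942 peaks at these genes, so a vehicle count of 0 cannot be told apart from the length of those lists. Per 10000 peaks of each list, FOXL2 peaks at these genes numbered 6.02 and 5.96 with vehicle against 5.53 and 6.17 with activin, so the counts overlapped once list length was taken into account.

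The genes differed widely among themselves. Cpe held 28 FOXL2 regions, the 65th highest number among 15377 protein-coding genes with a peak of any list within 100 kb. Scg2 followed with 16, Chgb with 12, Chga with 9 and Scg3 with 4, while Scg5 and Pcsk2 had 1 each and Pcsk1n, Pcsk1 and Pam had none. The median over the 10 genes was 2.5 FOXL2 regions, beside 2 over those protein-coding genes. Pcsk1 and Pam, with no peak of their name within 100 kb, are outside that set but count as 0 among the 10. The medians are thus of unlike sets. For H3K27ac, Scg2 held 8 regions, Chgb 5, Chga 4, Cpe 3, Scg5 and Pcsk1n 2 each and Scg3 1. The median was 2, beside 1, over the same unlike sets. SMAD2/3 regions were found at Chga and Cpe (2 each) and at Chgb, Scg5 and Pcsk1n (1 each).

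**Figure D1:**
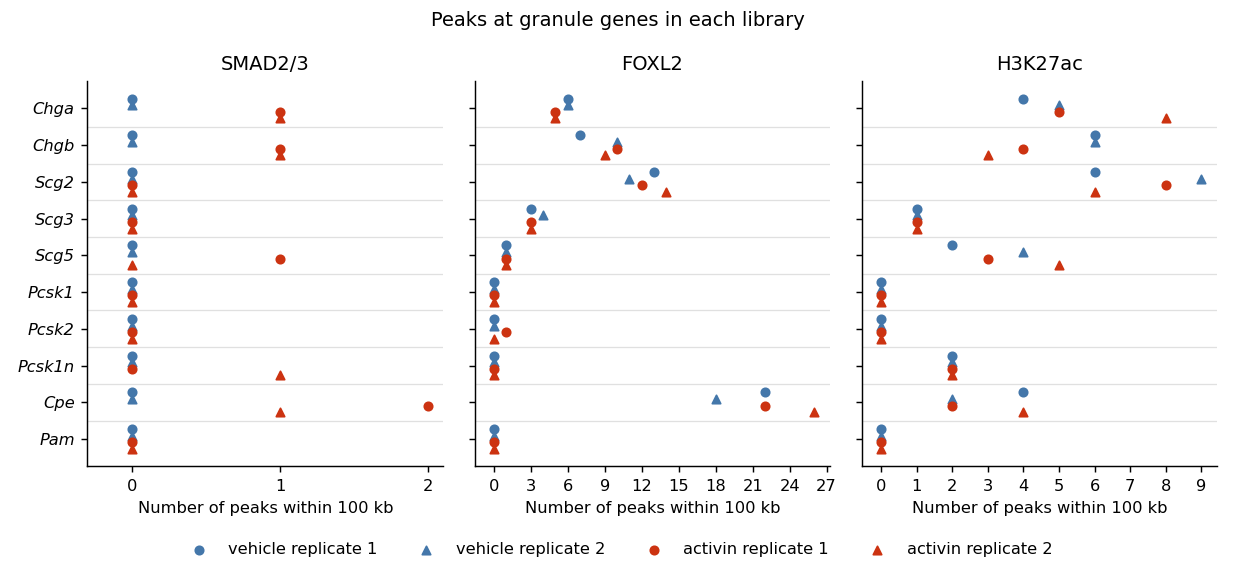
Number of SMAD2/3, FOXL2 and H3K27ac peaks within 100 kb of each gene's start in each of the 4 libraries per antibody (x axis, number of peaks; y axis, gene; blue vehicle, red activin; circles replicate 1, triangles replicate 2). The vehicle SMAD2/3 points all sit at 0, Cpe has 18 to 26 FOXL2 peaks per library, and Pcsk1 and Pam have none of any antibody.

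Chgb, a granin, carried the strongest SMAD2/3 peak of the group. The region lay in intergenic sequence at −7.13 kb from the start (chr2:132773930-132774375). Neither vehicle library had a peak there, and the activin libraries had one with a −log10 q of 43.4 and 54.6. Ordered by −log10 q, these peaks stood at places 614 and 241 of their lists, and the authors' fold enrichments were 9.32 and 11.8. The SMAD2/3 summit was 26 bp from the nearest FOXL2 summit in the first activin library and 5 bp in the second. The FOXL2 region at that position had peaks in all 4 libraries, and their −log10 q was 112 and 128 with vehicle against 205 and 174 with activin. A −log10 q describes a peak within its own list. To compare treatments across lists of unequal length, regions with a peak in all 4 libraries were ranked among themselves (0 to 100, with 100 the strongest). Each region took the −log10 q of its strongest peak in each library. This FOXL2 region ranked at 91.3 and 95.3 with vehicle against 97.8 and 97.3 with activin, a gap matched or exceeded at 21.9% of 58444 shared FOXL2 regions. It overlapped an H3K27ac region of all 4 libraries whose ranks overlapped between treatments (87.3 and 83.8, then 86.9 and 77.0). That H3K27ac region spans 5472 bp. Its strongest peak lay at −4.23 and −4.25 kb with vehicle and −4.27 kb in activin replicate 1. H3K27ac peaks over the FOXL2 region itself had a −log10 q of 5.08 in vehicle replicate 1 and 2.55 and 4.43 in vehicle replicate 2. With activin it was 14.5 and 11.6, the second in a peak spanning both positions. Their places were 19610, then 29211 and 20033, against 6049 and 5806 with activin. This difference was not tested.

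Further FOXL2 regions flanked that position at Chgb. One at −11.4 kb was found in both activin libraries, with a −log10 q of 33.5 and 20.8, and in neither vehicle library. Regions at 3.61 and 9.53 kb downstream of the start were found in all 4 libraries. The one at 9.53 kb ranked higher with vehicle (85.4 and 85.5) than with activin (67.9 and 75.9), and the one at 3.61 kb had overlapping ranks. Near the start itself FOXL2 was marginal, with peaks at −0.024 kb in 1 vehicle and 1 activin library and a −log10 q of 3.74 and 3.78. H3K27ac over the Chgb start stood at places 1637 and 1667 of the vehicle lists and 858 and 872 of the activin lists, and its shared rank was 93.4 and 93.2 with vehicle and 96.5 in both activin libraries.

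**Figure D2:**
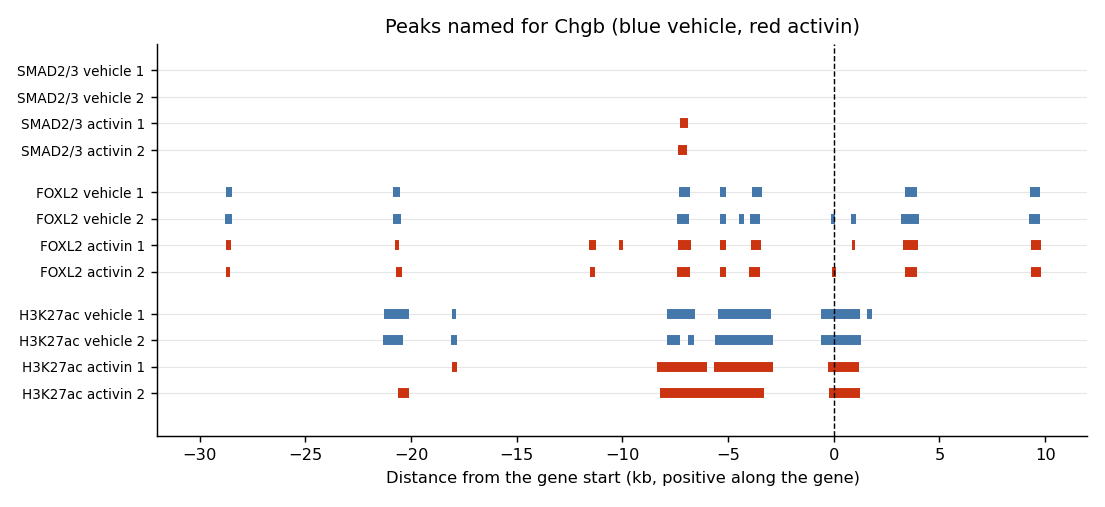
Peaks named for Chgb in each of the 12 lists (y axis) by distance from the gene start in kb (x axis), with vehicle in blue and activin in red; peaks narrower than the line are drawn at a minimum width. The 2 activin SMAD2/3 lists alone have the peak at −7.13 kb, above FOXL2 peaks in all 4 libraries, and the FOXL2 peak at −11.4 kb is in both activin libraries.

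Cpe, which encodes carboxypeptidase E, had the other SMAD2/3 region found in both activin libraries and in neither vehicle library. It lay in an intron at 72.1 kb downstream of the start (chr8:64620818-64621160), with a −log10 q of 7.02 and 3.58 and places 5512 of 7784 and 5608 of 5970. FOXL2 was present there in all 4 libraries with overlapping ranks. The SMAD2/3 and FOXL2 summits were 21 and 101 bp apart in the 2 activin libraries. The H3K27ac region over the same position (centre at 72.2 kb) ranked at 65.5 and 32.2 with vehicle and at 69.6 and 82.4 with activin, so both activin libraries were higher, by a margin smaller than the gap between the vehicle libraries. The H3K27ac region at the Cpe start (centre at 0.509 kb) ranked at 65.6 and 58.7 with vehicle against 66.4 and 82.3 with activin. The start itself lay under a peak in 2 libraries, replicate 1 of each treatment. A further SMAD2/3 peak, at −11.5 kb (chr8:64704458-64704662), was found in activin replicate 1 only, with a −log10 q of 6.77, and lay 38 bp from a FOXL2 summit.

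FOXL2 regions were spread around the Cpe start from −16.9 to 89.1 kb. Of its 28 regions, 16 had a peak in all 4 libraries, and only 1 of these 16 overlapped an H3K27ac region of all 4 libraries (6.25%, Wilson 95% interval 1.11 to 28.3%), the one under the SMAD2/3 peak. The strongest FOXL2 region in 3 of the 4 libraries lay at 59.6 kb, with a −log10 q of 213 and 123 with vehicle against 213 and 184 with activin. In vehicle replicate 2 the region at 56.4 kb was stronger, with a −log10 q of 160. Ranks differed between treatments in both directions at this gene. At 4.41 kb the −log10 q was 13.2 and 1.70 with vehicle against 45.0 and 40.0 with activin, and the shared ranks were 25.8 and 0.12 against 65.6 and 64.7. At 38.6 kb the ranks were 11.1 and 2.35 with vehicle against 54.7 and 52.6 with activin. Regions at 10.1 and 79.9 kb also ranked higher in both activin libraries, and one at 18.7 kb had peaks in both activin libraries and neither vehicle library. In the other direction, the region at 58.1 kb ranked at 75.4 and 74.9 with vehicle against 57.6 and 43.1 with activin, and the one at −16.0 kb at 52.3 and 42.4 with vehicle against 20.4 and 21.6 with activin. In all, 4 of the 16 ranked higher in both activin libraries (25%, beside 25.8% of all shared FOXL2 regions) and 6 in both vehicle libraries (37.5%, beside 33.1%), shares near those of all regions.

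**Figure D3:**
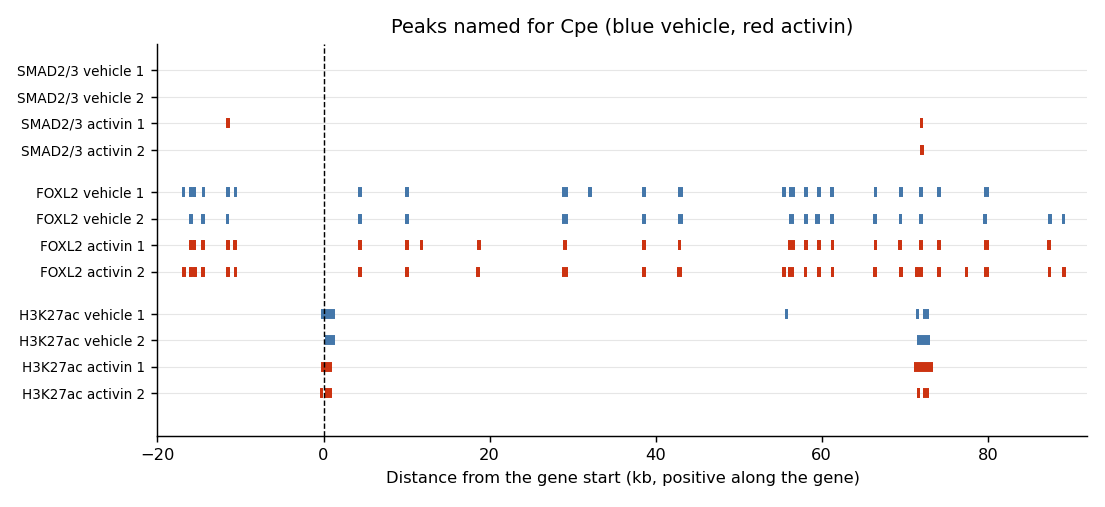
Peaks named for Cpe in each of the 12 lists (y axis) by distance from the gene start in kb (x axis), with vehicle in blue and activin in red; peaks narrower than the line are drawn at a minimum width. FOXL2 peaks spread from −16.9 to 89.1 kb, while H3K27ac of all 4 libraries is at the start and at 72.2 kb, where the activin SMAD2/3 peak lies.

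Chga, which encodes the granin chromogranin A, had the widest merged H3K27ac region of the group. H3K27ac peaks of all 4 libraries merged into a region of 21024 bp over the start. Only vehicle replicate 1 had 1 continuous peak there, and each other library had 2 peaks with a gap between them. A further 3 regions lay at −33.4, −27.6 and −20.9 kb. In sum, H3K27ac covered 33837 and 33606 bp with vehicle and 32672 and 31570 bp with activin. The covered length was thus greater in both vehicle libraries, as it was in 29.9% of 11561 genes. The shared ranks of the 3 upstream regions were also higher with vehicle, at −27.6 kb for instance 94.6 and 95.4 against 90.9 and 89.8, while those of the region over the start overlapped. Each activin library had 1 SMAD2/3 peak at Chga, at different positions. That of replicate 1 lay at −8.06 kb with a −log10 q of 11.4, 562 bp from the nearest FOXL2 summit. That of replicate 2 lay at −3.56 kb with a −log10 q of 2.57, 52 bp from a FOXL2 summit. The largest FOXL2 difference at Chga was at −39.9 kb, where the −log10 q was 14.0 and 11.8 with vehicle against 49.9 and 43.3 with activin and the ranks 27.9 and 29.0 against 68.8 and 67.2. A gap at least that wide in favour of activin was seen at 1.58% of 58444 shared FOXL2 regions. At 5.87 kb FOXL2 had a peak in both vehicle libraries, with a −log10 q of 6.15 and 9.86, and in neither activin library.

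Scg2, which encodes secretogranin II, had the strongest acetylation over a start among these genes. Its H3K27ac region over the start stood at places 154 and 133 with vehicle against 130 and 310 with activin, and its ranks overlapped. FOXL2 covered the start as well, in all 4 libraries, at −0.124 kb with a −log10 q of 21.6 and 11.5 with vehicle against 15.6 and 22.0 with activin, which also overlapped. This is the FOXL2 region that spans the printed Scg2 stretch. No SMAD2/3 peak was named for Scg2 in any library. FOXL2 at −29.4 kb ranked at 62.6 and 52.2 with vehicle and at 19.0 and 12.2 with activin, a gap matched or exceeded in favour of vehicle at 0.560% of shared regions. At 14.9 kb the ranks were 44.7 and 63.7 with vehicle against 2.86 and 22.3 with activin. Scg2 also had 2 FOXL2 regions found in both activin libraries only (−33.2 and 73.7 kb) and 2 found in both vehicle libraries only (9.25 and 77.7 kb), all with a −log10 q under 10. H3K27ac at 33.6 and 38.3 kb ranked higher in both vehicle libraries.

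Scg3, which encodes a granin that binds chromogranin A and granule membranes, had few regions. FOXL2 at 6.30 kb had a −log10 q of 91.4 and 95.9 with vehicle against 107 and 99.7 with activin, and its ranks overlapped. FOXL2 at −3.86 kb ranked at 82.0 and 80.8 with vehicle against 78.5 and 74.8 with activin. The single H3K27ac region lay over the start and had overlapping ranks. No SMAD2/3 peak was named for the gene.

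Scg5 encodes 7B2, the chaperone that the convertase encoded by Pcsk2 needs to mature. Its H3K27ac region over the start was lower in rank with activin, at places 4638 and 5965 with vehicle against 7885 and 9893 with activin, and shared ranks of 81.4 and 76.2 against 68.4 and 61.5, a gap matched or exceeded in favour of vehicle at 14.5% of shared regions. The total H3K27ac length was also shorter, with 5626 and 4924 bp for vehicle and 4802 and 3149 bp for activin. A greater length in both vehicle libraries was seen in 29.9% of 11561 genes. Its 1 FOXL2 region, at 4.66 kb, went the other way, with a −log10 q of 9.03 and 10.6 with vehicle against 16.2 and 18.7 with activin and shared ranks of 14.2 and 25.0 against 31.2 and 38.4. That gap was matched or exceeded in favour of activin at 16.0% of shared FOXL2 regions. A SMAD2/3 peak at 5.10 kb was present in activin replicate 1 only, with a −log10 q of 5.86, and lay 428 bp from the nearest FOXL2 summit.

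Pcsk1n encodes proSAAS, an inhibitor of the convertase encoded by Pcsk1, and showed the largest H3K27ac difference of the group. The region at −1.35 kb (chrX:7917274-7919676) had a −log10 q of 20.1 and 19.4 with vehicle against 47.6 and 50.1 with activin. It stood at places 3256 and 2900 of the vehicle lists and at places 230 and 20 of the activin lists, and its shared ranks were 86.9 and 88.3 with vehicle against 99.1 and 99.9 with activin, a gap matched or exceeded in favour of activin at 11.3% of 24356 shared H3K27ac regions. The region at 0.558 kb (chrX:7919979-7920781) had a −log10 q of 4.16 and 4.20 with vehicle against 11.8 and 9.29 with activin. Its shared ranks were 20.3 and 24.8 with vehicle against 67.1 and 68.2 with activin, and a gap that wide in favour of activin was seen at 0.924% of those regions. In both regions the ranks of the treatments did not overlap. H3K27ac covered 1941 and 1699 bp with vehicle and 3135 and 2106 bp with activin, a greater length in both activin libraries as in 20% of genes. The gap between the regions held the start in all 4 libraries. A SMAD2/3 peak lay at −0.232 kb (chrX:7919472-7919708), in a position that the annotation classes as promoter, in activin replicate 2 only, with a −log10 q of 3.96 and place 5455 of 5970. It covers the capitals of the printed Pcsk1n stretch. No FOXL2 peak was named for Pcsk1n, and the nearest FOXL2 summit of that library was 63062 bp away.

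**Figure D4:**
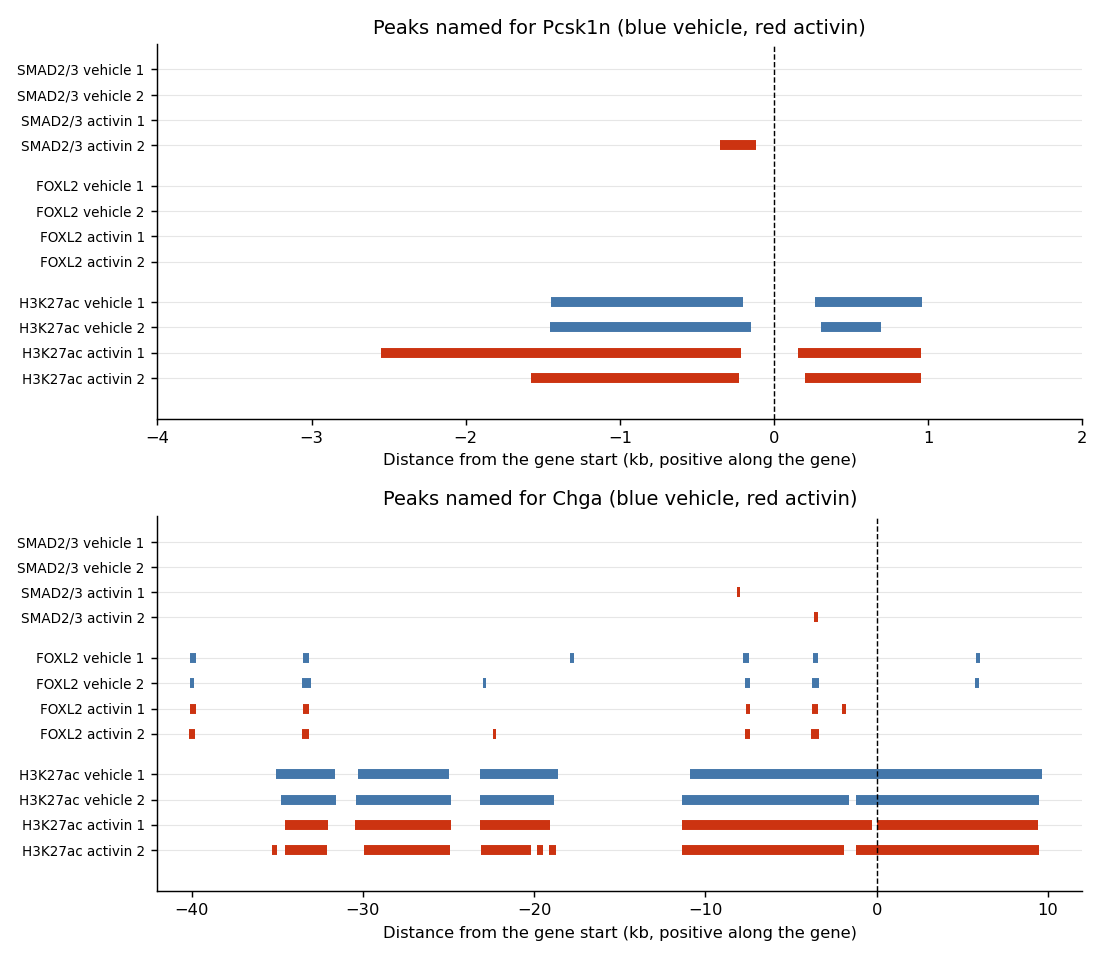
Peaks named for Pcsk1n (top) and Chga (bottom) in each of the 12 lists (y axis) by distance from the gene start in kb (x axis), with vehicle in blue and activin in red; peaks narrower than the line are drawn at a minimum width. At Pcsk1n H3K27ac lies on either side of the start in all 4 libraries and the SMAD2/3 peak is in 1 activin library. At Chga a merged region of 21024 bp covers the start, as 1 continuous peak in vehicle replicate 1 only.

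The remaining members gave little or nothing. Pcsk1 and Pcsk2 encode the main convertases of neuroendocrine granules. No peak of any antibody, for any gene, had its centre within 100 kb of the Pcsk1 start. The 6 peaks named for Pcsk1 all lay beyond that limit. Pcsk2 had 1 FOXL2 peak, at 71.1 kb in activin replicate 1, with a −log10 q of 5.11. Just beyond the limit, Pcsk2 had a FOXL2 peak at 103 kb and Scg2 had FOXL2 peaks at 103 and 107 kb in all 4 libraries, and the outermost Scg2 region within it lay at 89.4 kb. Pam was the name of no peak in any list, and a FOXL2 region of all 4 libraries inside the gene (chr1:97998538-97999174, centre 96.8 kb from the RefSeq start) was named for another gene, B230216N24Rik.

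Over all members, calls of presence and absence were few. Of 7 SMAD2/3 regions, 2 were present in both activin libraries and in neither vehicle library, beside 54.1% of all SMAD2/3 regions within 100 kb of a gene's start. The other 5 were each found in 1 activin library. None was found in all 4 libraries, beside 1.54%, or in the vehicle libraries only, beside 0.0266%. At the level of genes, 2 of 10 members had a region in both activin libraries and in neither vehicle library. The share was 10.4% over protein-coding genes with a peak of any list within 100 kb, a set without Pcsk1 and Pam. The count of 2 became 1 when a −log10 q of at least 5 was required or when the limit was 50 kb, which leaves Chgb. Of 71 FOXL2 regions, 40 were present in all 4 libraries (56.3%, beside 47.1% of all regions), 4 were in both activin libraries only, beside 8.72% of all regions, and 3 were in both vehicle libraries only, beside 3.25%. Of 25 H3K27ac regions, 19 were present in all 4 libraries (76%, beside 47.1% of all regions), and 0 were in the libraries of one treatment only, beside 5.82% for activin and 6.31% for vehicle. The alternative that counted any region within 100 kb, whichever gene it was named for, raised the number found in both activin libraries only. It became 7 for SMAD2/3, 9 for FOXL2 and 8 for H3K27ac. These counts come from a larger set of regions, so they cannot be set against the shares above.

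Ranks of the shared regions moved both ways in shares near those of all genes. Of the 40 shared FOXL2 regions, 8 ranked higher in both activin libraries (20%, beside 25.8% of all shared regions) and 13 in both vehicle libraries (32.5%, beside 33.1%). Of the 19 shared H3K27ac regions, 5 ranked higher in both activin libraries (26.3%, beside 28%) and 7 in both vehicle libraries (36.8%, beside 29.7%). The 5 H3K27ac regions higher with activin were both at Pcsk1n, both at Cpe and the one over the Chgb start. The 7 higher with vehicle were 3 at Chga, 3 at Scg2 and the one over the Scg5 start. When ranks were taken by fold enrichment, 7 of the 8, 11 of the 13, 3 of the 5 and 6 of the 7 were called the same way. Both Cpe H3K27ac regions were among those whose ranks then overlapped between treatments.

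**Figure D5:**
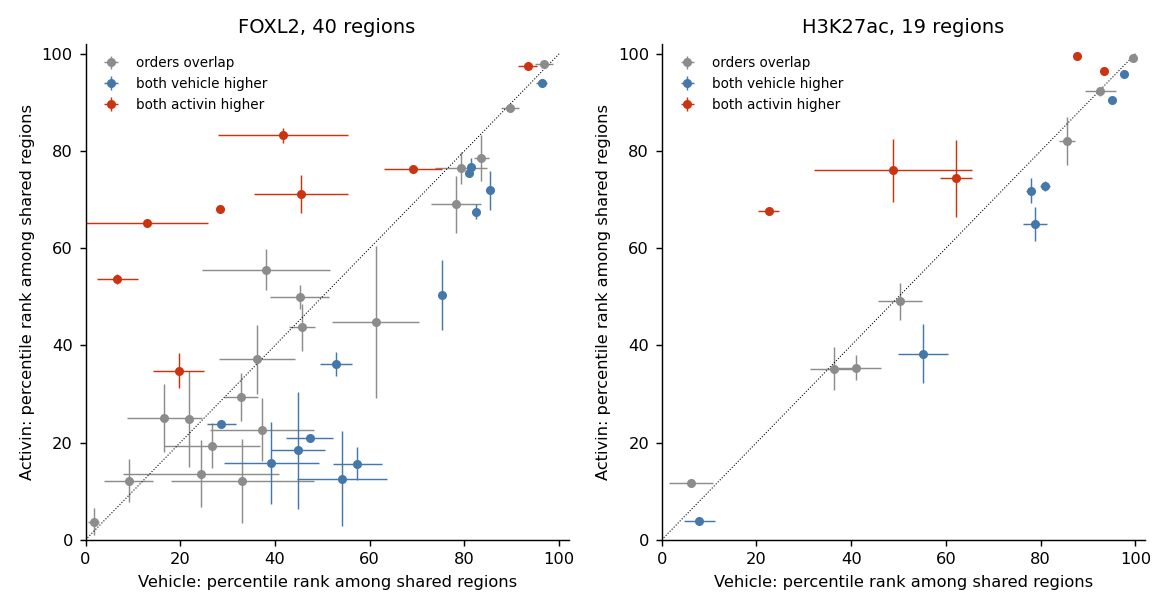
Percentile rank among regions with a peak in all 4 libraries, vehicle (x axis) against activin (y axis), for the 40 FOXL2 and 19 H3K27ac regions of the granule genes; points are means of 2 libraries, bars span the 2 libraries, and colour gives the order. Points lie on both sides of the dotted line of equal rank: 8 red and 13 blue FOXL2 regions, 5 red and 7 blue H3K27ac regions.

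FOXL2 and H3K27ac coincided to a different degree from gene to gene. Over the members, 13 of 40 FOXL2 regions of all 4 libraries overlapped an H3K27ac region of all 4 libraries (32.5%, Wilson 95% interval 20.1 to 48.0%), beside 18.8% of such regions near any gene. The share was 3 of 4 at Chga, 4 of 9 at Scg2, 3 of 7 at Chgb, 1 of 3 at Scg3, 1 of 1 at Scg5 and 1 of 16 at Cpe. Both SMAD2/3 regions of both activin libraries overlapped FOXL2 and H3K27ac, where 81.3% and 78.3% of all such SMAD2/3 regions did. With the SMAD2/3 peaks of 1 activin library, the share overlapping FOXL2 was 60% without activin replicate 2 and 75% without activin replicate 1. Conversely 2 of 49 FOXL2 regions of both activin libraries overlapped such a SMAD2/3 region (4.08%), beside 5.27% near any gene. The intervals cover counting error only, and neighbouring regions of a gene are not independent. By genomic class, 50.9% of the members' FOXL2 peaks and 51.9% of their H3K27ac peaks were intergenic, beside 31.3% and 23.7% of all peaks that near to a start. These are 214 FOXL2 and 108 H3K27ac peaks pooled over 4 libraries, from 71 and 25 regions, so a site was counted repeatedly.

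A second list held 24 other genes of the secretory pathway and none of the members. It covered further cargo, membrane proteins, vesicular transporters and processing enzymes, and was not restricted to granule proteins. SMAD2/3 regions in both activin libraries and neither vehicle library were found at 6 of the 24 (Ptprn2, Cyb561, Pcsk5, Ctsl, Ece1 and Slc18a2). Pcsk5, a convertase of the same family as Pcsk1, had 2 of them. The share was 10.4% over protein-coding genes with a peak of any list within 100 kb, a set without Nucb1. FOXL2 regions of both activin libraries were found at 19 of the 24 genes, beside 64.8% of that set. Of the list's 44 shared FOXL2 regions, 9 ranked higher in both activin libraries and 22 in both vehicle libraries, beside 25.8% and 33.1% of all shared regions. Of its 25 shared H3K27ac regions, 10 ranked higher in both activin libraries and 3 in both vehicle libraries, beside 28% and 29.7% of all shared regions. A difference between this list and the members was not tested.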

How the data were processed

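ChIP-seq peak lists of 12 libraries were used. Bowtie2, MACS2 and HOMER and the builds GRCm38 and mm10 are named in the submitters' processing notes, without versions or order. Peaks were called per library by the authors. Per the file headers, annotatePeaks gave each peak a gene, a distance to its start and a class. Each deposited peak carries the authors' fold enrichment (a ratio over a background not described), −log10 p and −log10 q, and a deposited score, which follows 10 times the −log10 q. These are each peak's own values and were used only to describe, rank or filter peaks within a list. Starts were derived from peak centres and distances (for Pam from RefSeq). All 10 members, every SMAD2/3 region, the regions nearest each start and those found with one treatment only were to be named. The members and lists were chosen with earlier results of these data known. Libraries of a group are separate pools of plates whose independence the labels do not state, so a p-value measures only their spread. Counts were compared with exact permutation tests (pseudocount 1), and shares were given with Wilson intervals (scipy 1.17.1). The scripts (Python 3.11.15, pandas 2.3.3) were tested on simulated data. Alternatives covered thresholds, distance, overlap, ranking and left-out libraries. Gh had no derived start and was not used here.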

Additional observations from a re-analysis of the deposited data

How the results depend on the processing

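The numbers of SMAD2/3 and FOXL2 peaks kept their direction except where FOXL2 was counted per 10000 peaks of its list, which gave a log2 difference of −0.031. For H3K27ac, with a difference of 0, there was no direction to keep. It was −0.027 within 50 kb and −0.10 or 0.10 with each library left out. Counting any peak within 100 kb moved H3K27ac from 0 to 0.16. SMAD2/3 regions found in both activin libraries only numbered 1 at a −log10 q of at least 5, 1 within 50 kb, 7 for any region within 100 kb, and 2 to 5 with each library left out. FOXL2 regions found with activin only numbered 9 for any region and 5 to 8 with each library left out (8 without vehicle replicate 1 or without either activin library). Those found with vehicle only numbered 1 at a −log10 q of at least 5 and 3 to 6 with each library left out (6 without either vehicle library). H3K27ac regions of one treatment only numbered, for any region, 8 with activin and 2 with vehicle, and with each library left out 0 to 1 with activin (1 without activin replicate 2) and 1 to 2 with vehicle. The share of FOXL2 regions ranking higher with vehicle ran from 37.5 to 55% with each library left out, beside 32.5% with all. It was 55% without activin replicate 2 and 53.7% without vehicle replicate 1. The share ranking higher with activin ran from 27.5 to 34.1%, beside 20% with all. It was 34.1% without vehicle replicate 2, 32.5% without activin replicate 1 and 31.7% without vehicle replicate 1. For H3K27ac the shares ran from 30 to 57.9% for vehicle (57.9% without vehicle replicate 1) and from 30 to 40% for activin (40% without activin replicate 2). With a library left out, 1 library stood against 2, a looser rule for these shares and for the counts of regions above. Shares of all regions under that rule were not computed, so a rise says nothing particular about these genes. Of all alternatives computed, 90 kept the result, 22 moved it and 1 reversed it. With a replicate block the log2 differences were 2.45, 0.13 and 0 for SMAD2/3, FOXL2 and H3K27ac, with exact sign-flip p-values of 0.5, 0.5 and 1, where 0.5 is the smallest that 2 pairs allow. Same-numbered libraries deviated together with correlations of −0.013, 0.16 and −0.039, and the labels give the numbers no shared source, so they were not taken as pairs. Depth could not be examined.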

Other observations

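Several regions near the granule genes were named by the annotation for neighbouring genes and so do not enter the counts above. SMAD2/3 regions found in both activin libraries and in neither vehicle library lay at 42.2 and 76.9 kb from the Chga start (named for Gm37019 and Itpk1), with a −log10 q of 46.3 and 34.8 at the first and 29.8 and 15.4 at the second. Others lay at 20.4 kb from the Scg3 start (named for Gm37871, 17.9 and 10.6), at 76.6 kb from the Scg5 start (named for Grem1, 26.0 and 6.28) and at −42.3 kb from the Cpe start (named for Msmo1, 37.6 and 18.3). Each was stronger than the SMAD2/3 region inside Cpe. The Grem1 position, where Grem1 encodes a secreted antagonist of bone morphogenetic proteins, had FOXL2 in all 4 libraries, in a region that contains the SMAD2/3 region (98.1 and 94.7 with vehicle, 123 and 113 with activin). Beside it lay a weaker FOXL2 region (16.2 and 38.2) found in both activin libraries and in neither vehicle library. The same call was made at 2 H3K27ac regions. One (12.1 and 6.62) overlapped the SMAD2/3 region and the stronger FOXL2 region. The other (5.71 and 6.40) overlapped both FOXL2 regions but not the SMAD2/3 region. Near Chga, 5 H3K27ac regions named for other genes were found in both activin libraries only, each with a −log10 q under 5. In the other direction, 1 near Chga (1.32 and 2.45) and 1 near Chgb, at 87.9 kb (2.46 and 1.68), were found in both vehicle libraries only. Over all H3K27ac regions these calls were made at 5.82% for activin and 6.31% for vehicle. The call for activin was made at 54.1% of all SMAD2/3 regions and at 8.72% of all FOXL2 regions. Which gene any of these regions acts on was not measured.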
